A study of Homo sapiens with 4 samples.

Results

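Isolated HOXB13 peaks are the sites from the peak list labelled GSK2879552, from LNCaP cells, that had no other peak of the same list within 100 kb on either side. They were 1269 of 64691 peaks (1.96%) on chromosomes 1 to 22 and X, counted after 2988 peaks lying within 2 Mb of a peak-free stretch of at least 2.5 Mb had been set aside, out of 67679 on these chromosomes. The other 63422 peaks outside those flanks served for comparison. The isolated peaks were chosen by the positions of the peaks in the GSK2879552 list, so their distances are a description. Their width, height and background come from the same list and are likewise given without a test. The vehicle list took no part in the choice.

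HOXB13, a homeobox protein made in the prostate, binds DNA together with FOXA1 and the androgen receptor, mostly at enhancers away from promoters. Binding sites of such factors often lie in clusters, where several enhancers serve the same gene, while other sites stand alone in long stretches with few regulatory elements. GSK2879552 inhibits the histone demethylase LSD1 (KDM1A), which removes methyl groups from histone H3 and works with the CoREST repressor complex as well as with the androgen receptor.

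LNCaP cells are a long-used line of prostate cancer cells that respond to androgen. HOXB13 chromatin immunoprecipitation with sequencing was done after GSK2879552 at 50 µM for 4 hours or after vehicle, in RPMI1640 medium with 5% CSS in both groups. The treatment text names the inhibitor for all 4 samples, so the vehicle group rests on titles and descriptions. Each group was 2 sequencing lanes of 1 library, called technical replicates, with 1 peak list per group. No treatment was replicated, so the values carry no error between cultures and a difference between the lists is a difference between these libraries. Intervals are exact 95% binomial intervals and cover counting error only. For a count of 0, the share that 3 peaks of the total would make is given, with the exact upper limit beside it. A peak list holds no expression values, so the cell line could not be checked against its markers.

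Depth differed between the lists. The genome-wide background, in extended tags per position, was 2.79 with GSK2879552 and 0.443 with vehicle. This comes to 201 and 44.3 tags per 10 kb, provided that no input control was used. On chromosomes 1 to 22 and X the lists held 67679 and 3443 peaks.

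The isolated peaks stood far apart from any other called site. The distance to the nearer neighbour had a median of 140 kb (quartiles 115 and 194), against 10.8 kb for the other peaks (quartiles 4.0 and 22.9). The farther neighbour lay a median of 249.7 kb away, and the stretch between both neighbours, with the isolated peak inside it, measured a median of 401 kb. The nearer neighbour was more than 200 kb away for 298 isolated peaks (23.5%), more than 300 kb for 89 and more than 500 kb for 11. Of the 1269 peaks, 4 were the first or last peak of their chromosome and had a neighbour on 1 side only.

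The peak farthest from any other was on chromosome X at 1684093 to 1684231 (hg19, as for all positions given), with neighbours 1398 kb and 2115 kb away. It was of the least width called, 139 bp. Its fold enrichment was 3.95, and its pileup, the number of overlapping extended tags at the summit, was 14. A long peak-free stretch began 2115 kb to its right, just past the 2 Mb limit. Next came chromosome X at 100877710 to 100877905, with the same fold enrichment and pileup and neighbours 815 and 976 kb away. A taller site lay on chromosome 16 at 7506230 to 7506553, with neighbours 772 and 784 kb away, a pileup of 44 and an enrichment of 11.6. On chromosome 4, at 180337056 to 180337293, the nearer neighbour was 764 kb away and the pileup was 24. On chromosome 19, at 42202732 to 42202946, these were 698 kb and 20. The farthest peaks thus included weak and strong sites. None of the 5 had a vehicle peak, but only 4.07% of all 64691 peaks had one, so 5 are too few to differ visibly.

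The threshold of 100 kb cut through a continuous range. Just inside it lay peaks on chromosome 15 at 98968242 to 98968412 (100.01 kb from the nearer neighbour), on chromosome 16 at 79286120 to 79286258 (100.01 kb) and on chromosome 11 at 101198767 to 101198991 (100.02 kb), with pileups of 14, 14 and 30. Just outside it, a pair of peaks on chromosome 7, at 147276192 to 147276575 and at 147376563 to 147376808, lay 99.987 kb from each other, with pileups of 32 and 24. The third was on chromosome 2 at 151976860 to 151977021, at 99.936 kb and with a pileup of 12. The 253 isolated peaks with a neighbour at 100 to 110 kb had a median pileup of 17 and a median fold enrichment of 4.48, and 43.9% of them lay at the genome-wide background. The 315 peaks with a neighbour at 90 to 100 kb had 16, 4.29 and 42.5%.

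Isolated peaks were spread over all 23 chromosomes but unevenly. Chromosome X held 205 of them and chromosome 2 held 201, together 32.0% of the isolated peaks and 6.8% of all peaks considered. On chromosome X, 30.1% of the 680 peaks were isolated (26.7 to 33.8), on chromosome 2 5.40% of 3719 (4.70 to 6.18) and on chromosome 13 3.87% of 1707 (3.003 to 4.893). The median chromosome had 1.39%, and chromosome 15 the lowest share, 0.551% (13 of 2359, 0.294 to 0.941). Outside chromosomes X and 2 the share was 1.43%.

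**Figure D1:**
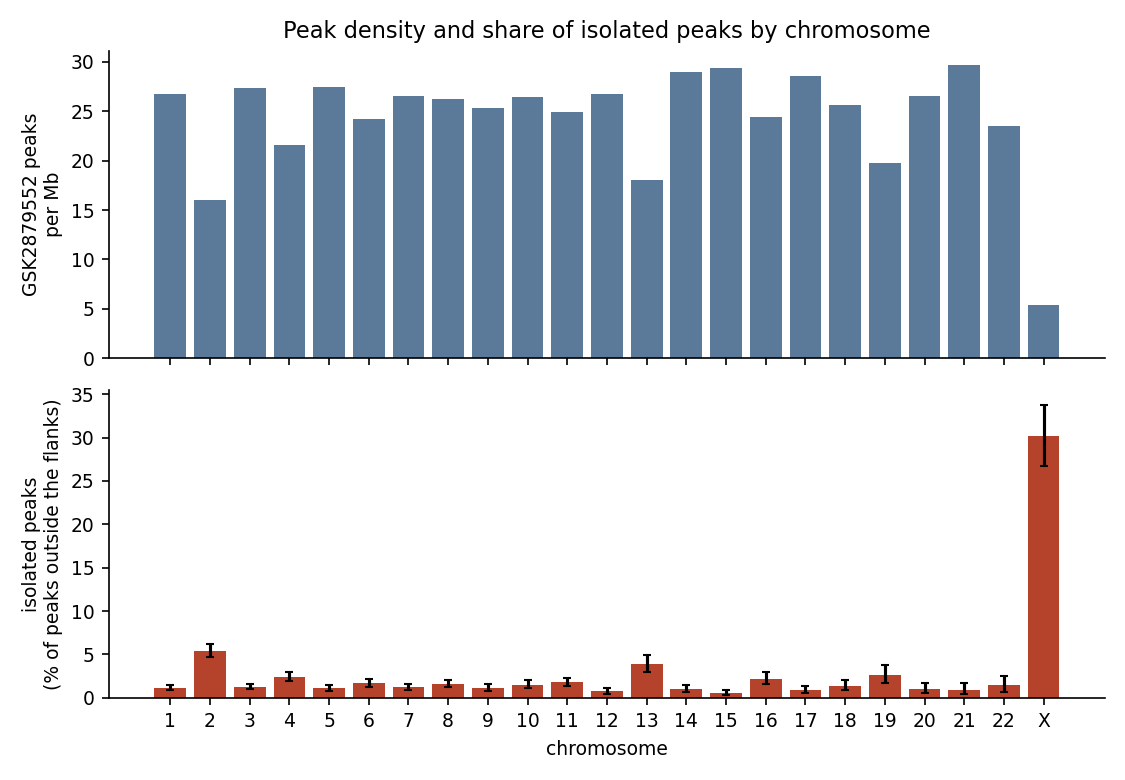
GSK2879552 peaks per Mb (top) and the share of peaks outside the flanks that were isolated (bottom, percent), by chromosome. Bars in the lower panel carry exact 95% binomial intervals. Chromosome X, with 5.37 peaks per Mb, has 30.1% isolated peaks, and chromosomes 2 and 13 follow with 5.40% and 3.87%.

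The share of isolated peaks was high where the list was sparse. Chromosome X had 5.37 peaks per Mb, chromosome 2 16.0 and chromosome 13 18.1, against 29.4 on chromosome 15. Across the 23 chromosomes, Spearman's rho between peaks per Mb and the share isolated was -0.90, and without chromosome X it was -0.89. Both measures count the same peaks, so this describes the list and is no test. DNA copy number, tags per chromosome and sequence to which tags cannot be assigned were not examined, and their part in the spread was not tested.

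Many isolated peaks followed one another along the chromosome. Of the 1269, 574 (45.2%) had no other of the 1269 next in line on either side. The remaining 695 (54.8%) stood in runs of at least 2 consecutive isolated peaks. There were 93 runs of 3 or more, 31 of them on chromosome X and 14 on chromosome 2. The longest runs had 10 peaks each, both on chromosome X. The first spanned 71699508 to 76628738, 4.93 Mb, with a median pileup of 14.5 and no vehicle peak. The second spanned 123122421 to 125980611, 2.86 Mb, with a median pileup of 15 and 1 vehicle peak. Outside chromosome X the longest runs had 6 peaks, on chromosome 2 at 70626216 to 71970305 and at 56678309 to 57876390, with median pileups of 20 and 18. These 4 runs were picked after their lengths were known.

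Most isolated peaks lay at the lowest local background that the list allows. This background is the larger of the genome-wide value and the tag density of a 10 kb window around the summit, so no peak can lie below the genome-wide value. The window includes the peak's own tags, so background and pileup are not independent. It also takes in the tags of any other peak inside it, and isolated peaks have none there by the rule. The comparison of backgrounds is therefore not independent of the choice. At 761 isolated peaks (59.97%, 57.2 to 62.7) it was at the genome-wide value, against 17.3% of the other peaks (17.0 to 17.6). Its median was 2.79 tags per position at isolated peaks and 3.41 at the others. It reached 1.5 times the genome-wide value at 43 isolated peaks (3.39%, 2.46 to 4.54) and at 20.2% of the others (19.9 to 20.6). The highest at an isolated peak was 2.19 times the genome-wide value, against 25.6 times among the others. The share at the genome-wide value was higher for isolated than for other peaks on 23 of 23 chromosomes. It was 92.2% against 78.1% on chromosome X, 70.6% against 37.4% on chromosome 2, and 49.8% against 15.6% on the other 21 chromosomes together.

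The low background was the end of a gradient. Of the peaks with a neighbour within 1 kb, 4.12% lay at the genome-wide background, and of those with the nearest at 1 to 5 kb, 4.20%. In these 2 classes the window can hold the neighbour's tags. The share was 16.3% with the nearest neighbour at 5 to 10 kb, 20.6% at 10 to 25 kb, 27.3% at 25 to 50 kb and 37.5% at 50 to 100 kb. Among isolated peaks it was 54.9% at 100 to 200 kb and 76.5% beyond 200 kb. On chromosomes 1 to 22 alone the last 2 classes had 49.9% and 69.7% at the genome-wide background. Chromosome X made up 0.383% of the peaks at 10 to 25 kb and 30.2% of those beyond 200 kb. The cause of the gradient was not tested.

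**Figure D2:**
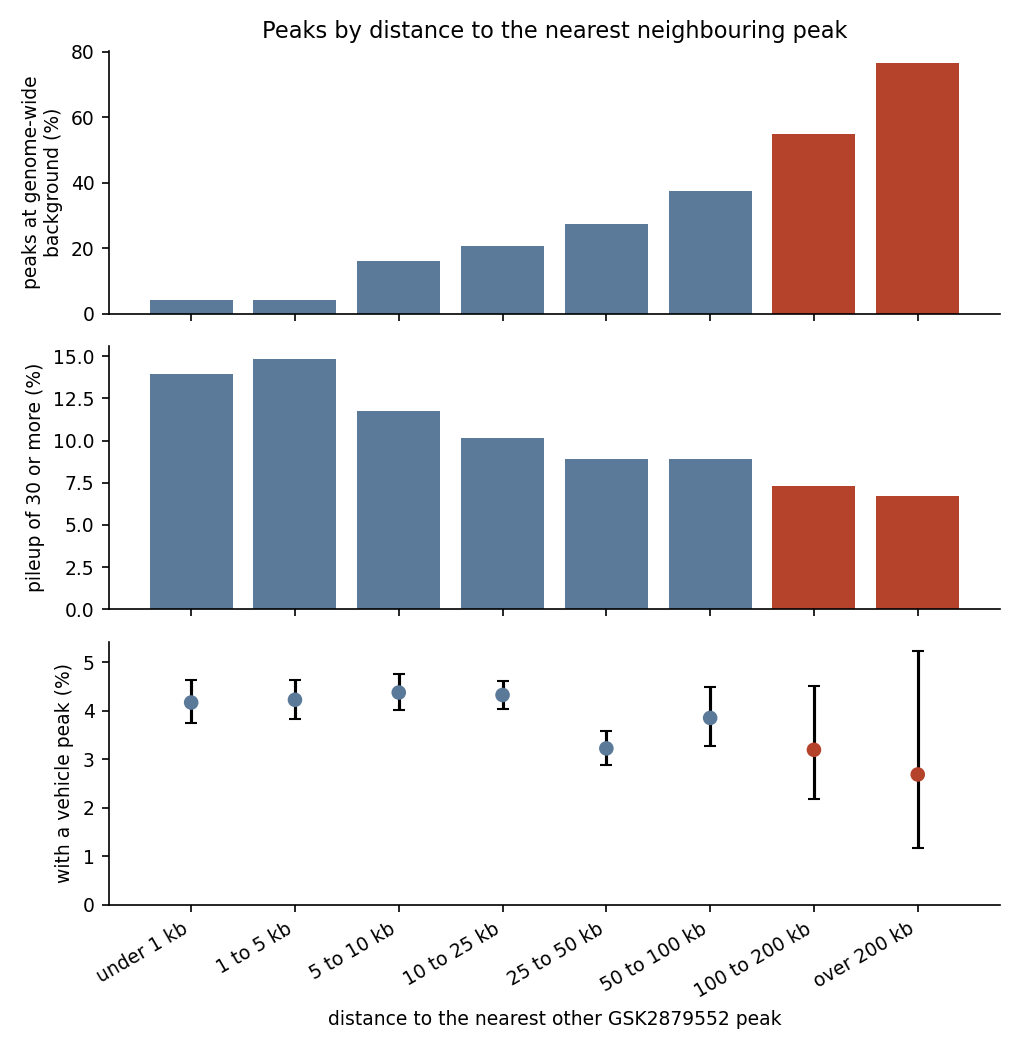
Share of peaks at the genome-wide background, share with a pileup of 30 or more, and share with a vehicle peak (all percent, the last with exact 95% binomial intervals), by distance to the nearest GSK2879552 peak. Isolated peaks are the 2 classes in red. The background share climbs from 4.12% to 76.5%, the share of tall peaks is 14.0% in the nearest class and 6.71% in the farthest, and the vehicle share stays between 2.68% and 4.37%.

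Isolated peaks were slightly lower in pileup and slightly higher in fold enrichment than the others. Their pileup had a median of 16 (quartiles 14 and 20, range 11 to 82), against 18 (quartiles 15 and 23, range 10 to 245). A pileup under 20 was found at 71.7% of isolated peaks (69.1 to 74.2) and at 61.0% of the others (60.7 to 61.4), and a pileup of at least 30 at 7.17% (5.81 to 8.73) and 11.4% (11.1 to 11.6). The authors' fold enrichment, pileup over local background with 1 added to each, had a median of 4.48 (quartiles 3.95 and 5.27) against 4.22 (quartiles 3.70 and 5.03). The median −log10 q was 5.18 in both sets. Width differed little, with a median of 191 bp (quartiles 154 and 255) against 198 bp (quartiles 158 and 268).

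Pileups were also compared within the peaks at and above the genome-wide background, a split that itself depends on pileup through the tags in the window. Among peaks at the genome-wide background, the 761 isolated peaks had a median pileup of 16 and a median fold enrichment of 4.48, and the 10950 others had 15 and 4.22. At this single background, fold enrichment is the pileup on another scale. There a pileup of at least 30 was reached by 2.102% of isolated peaks (1.21 to 3.39) and 0.831% of the others (0.670 to 1.02). Above the genome-wide background, the medians were 18 for the 508 isolated peaks and 19 for the 52472 others, while fold enrichment was 4.57 and 4.23. On chromosome X alone the medians were 16 and 17, and fold enrichment was higher in the other peaks, 4.73 against 4.48. On chromosome 2, pileup had a median of 17 in both sets.

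**Figure D3:**
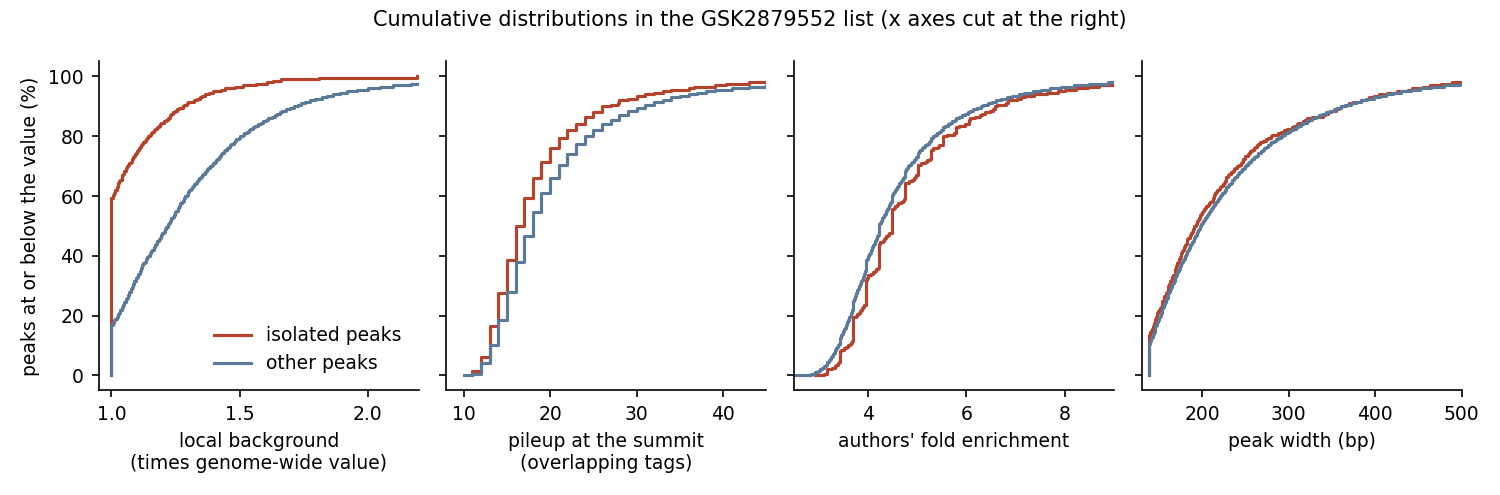
Cumulative shares (percent of peaks at or below the value on the x axis) of local background as a multiple of the genome-wide value, pileup in overlapping tags, the authors' fold enrichment and width in bp, for 1269 isolated and 63422 other peaks. The curves part most for the background, where 59.97% and 17.3% start at 1, and nearly coincide for width, with medians of 191 and 198 bp.

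Strong sites were found among the isolated peaks on several chromosomes. The highest fold enrichment was on chromosome 7 at 145694355 to 145694601, 19.2, with a pileup of 72 over the genome-wide background and neighbours 407.5 and 131 kb away. Chromosome 1 at 20466791 to 20467082 followed with 17.7 and a pileup of 68, and chromosome 11 at 46867705 to 46868146 with 14.3 and a pileup of 79. The next were on chromosome X at 131394514 to 131394991 with 13.9 and a pileup of 57, and on chromosome 2 at 80496963 to 80497291 with 13.6 and a pileup of 54. All of these 5 but the site on chromosome X had a vehicle peak. The site on chromosome 7 was the only one of the 5 at the genome-wide background.

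Broad peaks were few. A width of at least 500 bp was reached by 23 isolated peaks (1.81%, 1.15 to 2.71) and by 2.45% of the others (2.33 to 2.58). The widest lay on chromosome 20 at 12082336 to 12083298, 963 bp, with a pileup of 31 and no vehicle peak. Next came chromosome 19 at 7515146 to 7516021, 876 bp with a pileup of 70, and chromosome 4 at 173331664 to 173332480, 817 bp with a pileup of 57, both with a vehicle peak. The least width, 139 bp, was found at 176 isolated peaks (13.9%, 12.01 to 15.9) and at 10.9% of the others (10.7 to 11.2).

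**Figure D4:**
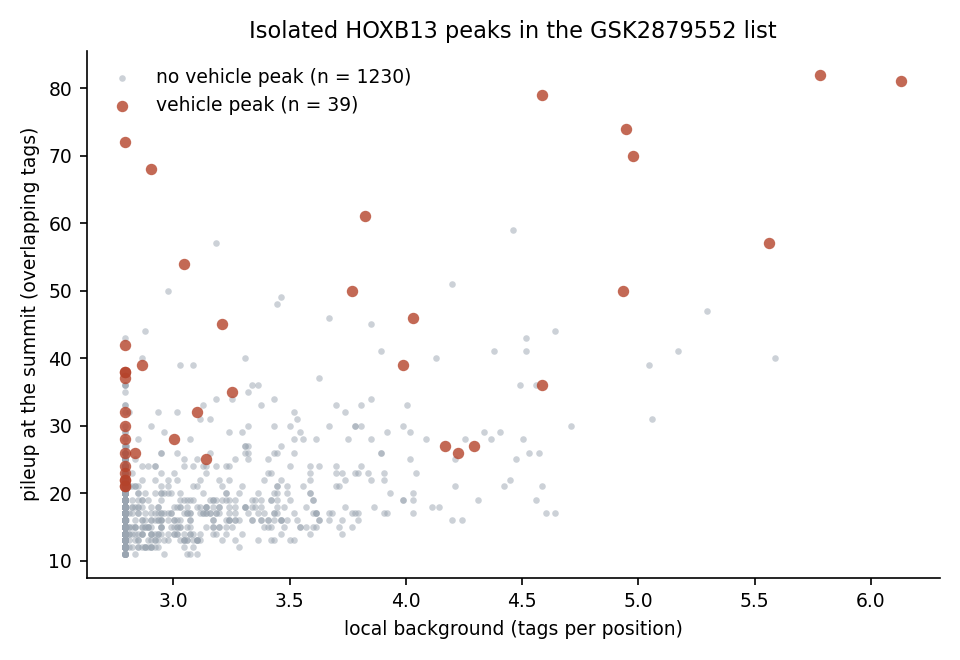
Pileup at the summit (overlapping tags) against local background (tags per position) for each of the 1269 isolated peaks in the GSK2879552 list. The column of points at the left is the 761 peaks at the genome-wide background of 2.79. Peaks with a vehicle peak (39, red) have pileups of 21 to 82.

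A vehicle peak overlapped 39 of the 1269 isolated peaks by at least 1 bp, a share of 3.07% (2.19 to 4.18). Over all 64691 peaks the share was 4.07%, and over the other peaks 4.09% (3.94 to 4.25). The interval of the isolated peaks thus contains the share of the whole. With 1 list per treatment the difference could not be tested across samples. On chromosome X the shares were 4.39% (9 of 205, 2.03 to 8.17) and 4.21% (2.59 to 6.43), on chromosome 2 2.99% (6 of 201, 1.10 to 6.38) and 3.84% (3.23 to 4.53), and on the other 21 chromosomes 2.78% (24 of 863, 1.79 to 4.11) and 4.10% (3.95 to 4.27). At the genome-wide background 15 of 761 isolated peaks had a vehicle peak (1.97%, 1.11 to 3.23), against 1.34% of the others (1.14 to 1.58).

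The share with a vehicle peak followed pileup in both sets. Below a pileup of 20, none of the 910 isolated peaks had one, which allows a share of up to 0.330% (exact upper limit 0.405%), against 223 of 38712 others (0.576%, 0.503 to 0.657). At 20 to 29 it was 5.22% (14 of 268, 2.89 to 8.61) against 2.86% (2.62 to 3.12), and at 30 to 39 18.2% (10 of 55, 9.08 to 30.9) against 11.8% (10.9 to 12.8). Of the 10 in the latter class 6 lay on chromosome X, and without that chromosome the share was 8.89% (4 of 45, 2.48 to 21.2), below the 11.8% of the others. At 40 to 59 it was 25% (7 of 28, 10.7 to 44.9) against 37.3% (35.3 to 39.4). At 60 or more, 8 of 8 isolated peaks had a vehicle peak (63.1 to 100), against 80.3% of 675 (77.1 to 83.2). The intervals overlapped in each class from 20 up, and the isolated peaks lay above the others in 3 of these 4 classes, and in 2 of 4 without chromosome X. Had each class of isolated peaks had the share of the other peaks, 36.3 would have had a vehicle peak, against the 39 found. Without chromosome X, a comparison added after seeing the data, these were 31.9 and 30, so the order of the found and the computed number turned.

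**Figure D5:**
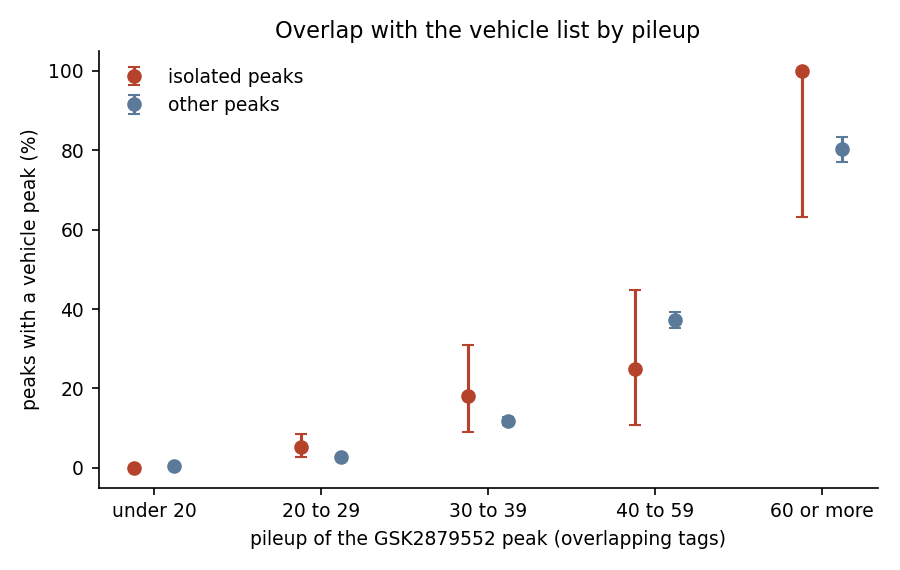
Share of GSK2879552 peaks overlapped by a vehicle peak (percent, points with exact 95% binomial intervals) by pileup class in overlapping tags, for isolated and other peaks. Both rise with pileup, from 0 and 0.576% under 20 to 100% of 8 and 80.3% of 675 at 60 or more. The intervals overlap in each class from 20 up and do not overlap under 20.

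The comparison was repeated by fold enrichment. These classes do not hold pileup equal. At the same fold enrichment a lower background means a lower pileup, and the median background was 2.79 at isolated and 3.41 at other peaks. No vehicle peak was found at 419 isolated peaks with a fold enrichment under 4 or at 432 with 4 to under 5, which allows shares of up to 0.716% and 0.694% (exact upper limits 0.877% and 0.850%). The others had 0.485% (0.403 to 0.578) and 1.12% (0.984 to 1.27). The shares were 2.29% (5 of 218, 0.749 to 5.27) against 3.98% (3.592 to 4.403) at 5 to under 6, 6.99% (10 of 143, 3.40 to 12.5) against 13.7% (12.8 to 14.6) at 6 to under 8, and 42.1% (24 of 57, 29.1 to 55.9) against 51.7% (49.5 to 53.8) at 8 or more. With the shares of the other peaks in these classes, 64.6 isolated peaks would have had a vehicle peak, against the 39 found. Without chromosome X these were 52.9 and 30. The exact intervals overlapped under 4, at 5 to under 6 and at 8 or more. They did not at 4 to under 5 and at 6 to under 8. Without chromosome X they overlapped there too, with 0 of 360 (up to 0.833%, exact upper limit 1.02%) against 1.12% (0.987 to 1.28) and 6.84% (8 of 117, 2.998 to 13.03) against 13.8% (12.88 to 14.7). The shares themselves hardly changed without that chromosome, and the intervals were wider with fewer isolated peaks.

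The 39 shared isolated sites were tall and broad for isolated peaks. Their median pileup was 37 (range 21 to 82) and their median width 406 bp, against 16 and 189 bp at the 1230 isolated peaks without a vehicle peak. The 2594 other shared peaks had medians of 40 and 355 bp. Summits in the 2 lists lay a median of 33 bp apart at isolated and 32 bp at other shared peaks, and within 50 bp at 28 of 39 and 67.0% of 2594. The vehicle peak had a median pileup of 9 in both sets and a median fold enrichment of 6.29 at isolated and 5.92 at other peaks. It lay at the genome-wide background of the vehicle library at 10 of 39 isolated sites (25.6%) and at 3.55% of the other shared sites.

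The 8 isolated peaks with a pileup of at least 60 had vehicle pileups of 9 to 29. The tallest 2 lay on chromosome 9 at 6320348 to 6320859 and at 12216503 to 12217207, with pileups of 82 and 81 in the GSK2879552 library and 15 and 13 in the vehicle library. The site on chromosome 11 named above had 79 and 24, and chromosome 6 at 15949568 to 15949959 had 74 and 9. The order of the sites by pileup thus differed between these 2 libraries. The vehicle pileups are small counts, and their counting error was not weighed. The sites on chromosomes 7, 19 and 1 named above had 72 and 29, 70 and 20, and 68 and 13. The last, on chromosome 4 at 181791725 to 181792158, had 61 and 14. All 8 lay outside chromosomes X and 2.

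The isolated sites with the highest vehicle fold enrichment were mostly of this group. They were the sites on chromosome 7 with 18.6, on chromosome 11 with 12.9, on chromosome X at 125606394 to 125606618 with 10.4, on chromosome 19 with 10.0 and on chromosome 4 at 181791725 with 9.74. The site on chromosome X had a pileup of 28 in the GSK2879552 library, against 61 to 79 at the other 4, and of 14 in the vehicle library. Its background was at the genome-wide value in both libraries.

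On chromosome X the 9 isolated peaks with a vehicle peak were of middling height. Their pileups were 21 to 39 in the GSK2879552 library and 6 to 14 in the vehicle library, and 6 of them lay at the genome-wide background of the former. The tallest was at 108297305 to 108297864, with 39 and 13. The least tall was at 106361347 to 106361556, with 21 and 6. These sites were also looked up after their values were known.

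Tall isolated peaks without a vehicle peak were picked after their values were known. The highest pileup among them was 59, on chromosome 10 at 110481580 to 110482051, where enrichment was 10.985-fold, with neighbours 412 and 820 kb away. Of the next 4, with pileups of 57, 51, 50 and 49, the first 3 lay on chromosome X and the last on chromosome 2.

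Of the 2938 vehicle peaks outside the flanks, 2672 overlapped a GSK2879552 peak and 40 overlapped an isolated peak (1.36%). A vehicle peak within 100 kb that did not overlap the isolated peak was found at 3 of the 1269. The choice of isolated peaks keeps this number low, since most vehicle peaks overlapped a GSK2879552 peak and no other such peak lies within that distance. In the sparser vehicle list, 2026 of 2938 peaks (69.0%) had no other vehicle peak within 100 kb. Of those 40, 38 were among them. The same choice keeps this number high, so it cannot be weighed against the 69.0%.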

How the data were processed

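Among the tools in the submitters' processing notes are MACS2 2.1.2, BWA 0.7.2 and SAMtools 0.1.18, with hg19 and GRCh37 as builds. Read filters, options and any input control are details not given in the sources used here. Sequence names in the lists are those of hg19, and coordinates are counted from 1. The deposited fold enrichment is a ratio per peak, the authors' own value at the summit. The deposited −log10 p-value and −log10 q-value are the authors' values at the summit. The deposited score equalled 10 times the −log10 q, rounded down, at 100% of peaks.

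Pileup and local background were solved from the deposited fold enrichment, with 1 added to each term, and the Poisson −log10 p. A whole pileup was found within 0.001 for 100% of peaks in both lists. Backgrounds above the genome-wide one were whole tags (within 0.05) in a 10 kb window at 99.998% of GSK2879552 and 100% of vehicle peaks, with tag extensions of 139 and 100 bp. Peak-free stretches counted from each chromosome's start and came to 28, chromosome Y included. Distances run from end to start, and any GSK2879552 peak counts as a neighbour. Routines for solving, isolation, flanks and overlap were tested on simulated data. Python 3.11.15, NumPy 2.4.6, pandas 2.3.3 and SciPy 1.17.1 were used.

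The isolated peaks, the classes and the regions to name were chosen with earlier results of these data known. Named were the 5 with the highest fold enrichment, the 5 farthest from a neighbour, the 5 with the highest vehicle fold enrichment, the 3 widest, and 3 on either side of the threshold. Alternatives varied the distance, the flanks, the overlap, the q-value limit and the chromosomes. Genes and sequence at the peaks had been planned and were not analysed here, since coordinates of hg19 were not converted. No test across samples was possible with 1 list per treatment.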

Additional observations from a re-analysis of the deposited data

Results flagged for a closer look

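Chromosome Y was outside the comparisons. By the same distance and flank limits it held 25 isolated GSK2879552 peaks among 127 (19.7%), with a median pileup of 18. None had a vehicle peak, which with 25 peaks allows a share of up to 12% (3 of 25; the exact upper limit is 13.7%).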

How the results depend on the processing

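The number of isolated peaks depended on the distance and on the list. It was 5269 at 50 kb, 298 at 200 kb and 2521 when isolated peaks and neighbours both needed a −log10 q of at least 5. It stayed between 1213 and 1305 with distances between summits, other flanks or vehicle peaks as neighbours. Chromosome X had the highest share isolated at 50, 100 and 200 kb, while at 200 kb chromosome 13 (1.35%) came before chromosome 2 (1.18%).

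The share with a vehicle peak was lower in isolated than in other peaks in 11 of 13 settings. With each peak covering at least 50% of the other it was 0.630% against 1.18%, and for GSK2879552 peaks with a −log10 q of at least 5 it was 5.53% against 7.18%. With vehicle peaks of −log10 q at least 5 (1.497% against 1.492%) and at the genome-wide background, an alternative chosen after seeing the data (1.97% against 1.34%), it was higher. The share of the other peaks was 2.75% with summits within 50 bp, 4.60% with a vehicle peak within 1 kb and 4.56% with flanks kept. The cause was not tested.

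Median fold enrichment was higher in isolated peaks in all 8 settings run, and median pileup and width were lower in 7 of 8. The exception was the genome-wide background alone, with pileups of 16 against 15 and widths of 175 against 171 bp, where both backgrounds are 2.79 by construction. At a −log10 q of at least 5 the medians were 224 and 235 bp, pileups of 20 and 22, fold enrichments of 5.23 and 4.98, and a background of 3.59 at other peaks. At 50 kb, background was 2.91 against 3.43 and fold enrichment 4.38 in isolated peaks. Without chromosomes X and 2, also chosen after seeing the data, background was 2.81 against 3.43 and fold enrichment 4.38 in isolated peaks. With flanks kept, background was 3.42 at other peaks.

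No paired analysis was possible because both lanes of a treatment share 1 peak list, so leaving out a lane was not run. The vehicle library had 44.3 tags per 10 kb, and sites too weak to be called at that depth have no value here.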

Other observations

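In bins of 10 Mb, isolated peaks were found in all but 37 of 305 bins with peaks, with a median of 3 per bin. The fullest bin, picked after the counts were known, was on chromosome X from 10 to 20 Mb, with 21 isolated among 68 peaks. On chromosome X from 70 to 80 Mb 16 of 32 peaks were isolated. The fullest bin on another chromosome was on chromosome 2 from 50 to 60 Mb, with 15 of 68. The flanks of long peak-free stretches, which were left out, held another 36 isolated peaks.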
